A study of Mus musculus with 4 samples.

Results

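The comparison described here sets the transcriptome of miR-26a knockout (miR-26a KO) chondrocytes of the mouse against that of wild-type chondrocytes, with 1 library on each side. Its members are the genes that had 20 or more reads in each of the 2 libraries, ranked by the ratio of their TPM (an expression level that the authors scaled to gene length and library size), and they numbered 7028 of the 55450 genes in the count table. These genes held 95.3% of the wild-type reads and 95.2% of the miR-26a KO reads that were counted on genes. Articular chondrocytes had been released with 3.5 mg/ml collagenase from the femoral heads of 3-week-old mice and grown in DMEM with 10% fetal bovine serum, and 3′ mRNA libraries (QuantSeq FWD) were sequenced from their RNA. All mice are labelled as C57BL/6 or C57BL6/J. The wild-type library is labelled with that genotype, and the study also calls the chondrocytes of its transcriptome comparison wild type, while its methods name floxed animals as the Control, so the exact genotype behind the denominator is not certain. The knockout library is labelled miR-26a -/-, with no statement of which miR-26a locus was deleted, in which cells, or whether the culture had received the control siRNA that the transfection protocol mentions. A second culture of miR-26a -/- chondrocytes was transfected with a miR-26a mimic (the mimic library), and the last library came from mice with Col2a1-cre and flox/flox alleles of the miR-23a/b clusters (Cart-miR-23 KO), in which the Col2a1 promoter drives Cre in cartilage. Their values are given only beside those of the 2 libraries compared. Since each condition is 1 library, no difference has a replicate check and none was tested. The intervals given with ratios are exact Clopper-Pearson intervals at 95%, which cover counting error alone and compare these libraries, not the genotypes. With culture, animal and genotype changing together, a difference of genotype and a difference between cultures cannot be told apart.

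A microRNA guides an Argonaute protein to mRNAs whose 3′ untranslated region (3′ UTR) pairs with its seed, bases 2 to 8 from its 5′ end, and loss of a microRNA is generally expected to raise the mRNAs it represses. The miR-26 family is made from introns of 3 genes that encode small C-terminal domain phosphatases, Ctdspl, Ctdsp2 and Ctdsp1. In chondrocytes it has been studied mainly for its reported action on matrix, inflammatory and signalling genes. The mature sequences below (RefSeq, GRCm38.p6) are shown because every seed match discussed later derives from them, with the seed in capitals. Mir26a-1 encodes miR-26a-5p at chr9:119031811-119031832 and Mir26a-2 encodes the same sequence at chr10:126995543-126995564, while Mir26b encodes miR-26b-5p at chr1:74394324-74394344, all on the plus strand. The 3 loci share 1 seed, so the loss of miR-26a would leave a microRNA of that seed in place wherever Mir26b is transcribed.
miR-26a-5p: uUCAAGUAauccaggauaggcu
miR-26b-5p: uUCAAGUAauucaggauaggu

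The wild-type library held 1505805 reads on genes and the miR-26a KO library 1369924, so that 0 reads allow a share of up to 0.000199% and 0.000219% (3 reads of the total). Of all reads sequenced, 19.06% did not align in wild type, 23.55% in miR-26a KO and 16.76% in Cart-miR-23 KO, and the part of this difference in the ratios was not tested. TPM ratios equalled read ratios times 1.10 for every gene. Both libraries carried the chondrocyte markers: Col2a1, the fibrillar collagen of cartilage, had 35871 wild-type reads and 25740 knockout reads, Acan, its main proteoglycan, 5077 and 3302, and Sox9, the chondrocyte transcription factor, 2158 and 1953. Osteoblast genes were abundant too, with Col1a1, the fibrillar collagen of bone and fibrous tissue, at 39203 and 15172 reads and Ibsp, a bone sialoprotein, at 10938 and 5837. Of the defining markers of other cells, Cdh5 and Kdr (endothelial), Hba-a1 and Hbb-bs (erythroid), Cd79a and Cd3e (lymphocyte), Ckm (skeletal muscle), Cidec (adipocyte), Calcr (osteoclast) and Myh11 (smooth muscle) were at 0 reads in both libraries. Other markers of the last 4 types were read: Acta1 had 2 and 1 reads, Mylpf 4 and 2, Adipoq 8 and 1, Acp5 4 and 7, Ctsk 191 and 241, Cnn1 6 and 2, and Acta2, which other cells in culture also express, 321 and 292. Y-linked transcripts were present in both, with Ddx3y at 128 and 122 reads, Eif2s3y at 31 and 20 and Uty at 30 and 23. The targeted microRNA gave no check of the label, since Mir26a-1, Mir26a-2 and Mir26b had 0 reads in both libraries and the libraries were built from polyadenylated mRNA.

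Most genes differed little between the libraries. The median log2 TPM ratio of miR-26a KO to wild type was 0.04 over the 7028 genes, and the middle 90% lay between -0.58 and 0.68. The ratio was above 2 for 112 genes (1.59% of those compared) and below 0.5 for 57 genes (0.811%). Intervals of all of these genes left out 1, which the minimum of 20 reads in each library ensures at such ratios. They lay wholly above 2 for 30 genes and wholly below 0.5 for 19. The ratio exceeded 4 for 10 genes and fell under 0.25 for 2. Depth set how far a single ratio can be read. Among the 2486 genes with 40 to 100 reads in both libraries together the interval reached 0.74 log2 units to each side at the median, among the 173 genes with 2000 reads or more only 0.10. Of the 173 genes, 5 were above 2 and 6 below 0.5. The share beyond 2-fold is not compared between depths, since the minimum of 20 reads in each library limits the ratios that genes with few reads can have.

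**Figure D1:**
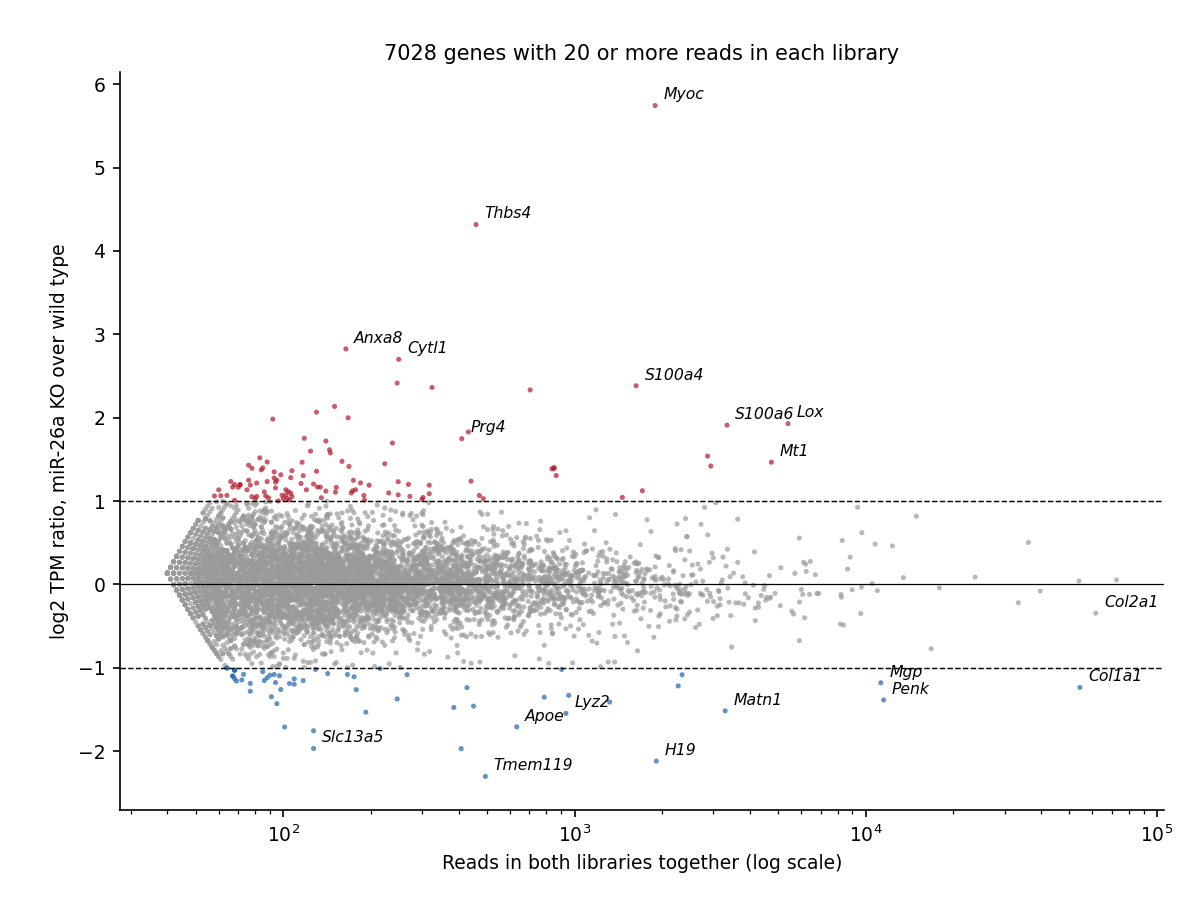
Each point is 1 of the 7028 genes with 20 or more reads in each library, with the reads of both libraries together on a log axis against the log2 TPM ratio of miR-26a KO to wild type. Dashed lines mark 2-fold, red points the 112 genes above 2 and blue points the 57 genes below 0.5, and Myoc and Thbs4 stand far above all others.

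Myoc and Thbs4 led the genes that were higher in miR-26a KO. Myoc (ENSMUSG00000026697, chr1:162639155-162649693), which encodes the secreted glycoprotein myocilin, had 38 wild-type reads and 1853 knockout reads. Its TPM ratio of 53.6 (95% interval 38.9 to 75.9) was the largest of the ranked genes, from 17.5 to 939 TPM, and the mimic library held 645 TPM and Cart-miR-23 KO 86.4 TPM. Thbs4 (ENSMUSG00000021702, chr13:92751590-92794818), a thrombospondin of tendon and other dense connective tissue, went from 24 to 435 reads, a ratio of 19.9 (13.2 to 31.4). Its level was 7.18 TPM in wild type, 143 in miR-26a KO, 89.4 with the mimic and 12.5 in Cart-miR-23 KO. For both genes the libraries of miR-26a -/- cells were thus the highest, with or without the mimic, and wild type was the lowest. Cart-miR-23 KO lay nearer to wild type than to miR-26a KO, though Myoc had 170 reads there against 38 in wild type. The next ratio was much smaller. Anxa8, a calcium-dependent membrane-binding annexin, had 22 and 142 reads, a ratio of 7.09 (4.50 to 11.7), and the mimic library held 100.3 TPM against 79.4 TPM in miR-26a KO. Cytl1, a secreted factor of cartilage, had 36 and 213 reads, a ratio of 6.50 (4.55 to 9.53). Angptl7, a secreted angiopoietin-like protein, had 42 and 204 reads, a ratio of 5.33 (3.81 to 7.62), and Cilp2, a cartilage intermediate layer protein, 57 and 267 reads, a ratio of 5.14 (3.85 to 6.97). Angptl7 stood at 22.0 TPM in Cart-miR-23 KO, close to the 18.6 TPM of wild type, while Cilp2 stood at 32.7 TPM there, between its 12.6 TPM in wild type and 65.1 TPM in miR-26a KO.

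Of the remaining genes among the 15 largest ratios, 2 encode calcium-binding S100 proteins and lie near each other on chromosome 3. S100a4 had 283 wild-type reads and 1344 knockout reads, a ratio of 5.22 (4.58 to 5.95). S100a6 had 755 and 2584 reads, a ratio of 3.76 (3.46 to 4.08). The pair differed in Cart-miR-23 KO, where S100a4 was at 675 TPM, near its 544 TPM in wild type, and S100a6 at 3149 TPM, near its 3716 TPM in miR-26a KO. Lox, the oxidase that crosslinks collagen and elastin, had the most reads of the 15, 1211 and 4198, a ratio of 3.81 (3.57 to 4.06). Col8a1, a short-chain collagen, had 102 and 330 reads, a ratio of 3.55 (2.84 to 4.48). Secreted regulators were present as well, Ccn3, a matricellular CCN protein, with a ratio of 4.19 (2.72 to 6.66) and Nbl1, an antagonist of bone morphogenetic proteins (BMPs), with a ratio of 4.00 (2.75 to 5.95). Nsg1, a protein of neuronal endosomes, had a ratio of 4.39 (2.92 to 6.79) and Maoa, the mitochondrial monoamine oxidase A, 3.95 (2.38 to 6.85), both on 20 to 30 reads in wild type. Lox, Ccn3 and Maoa were at least as high in Cart-miR-23 KO as in miR-26a KO, at 982, 56.6 and 29.3 TPM against 931, 37.7 and 18.2 TPM, so wild type was the low library for these 3 genes.

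The genes that were lower in miR-26a KO included bone, cartilage, macrophage and imprinted transcripts. Tmem119 (ENSMUSG00000054675, chr5:113793729-113800516), a membrane protein of osteoblasts and microglia, had 417 wild-type reads and 77 knockout reads, the smallest ratio of the ranked genes at 0.203 (0.157 to 0.259). It was at 178 TPM in wild type, 36.1 in miR-26a KO, 67.0 with the mimic and 7.05 in Cart-miR-23 KO. H19 (ENSMUSG00000000031, chr7:142575529-142578143), an imprinted long non-coding RNA, had 1578 and 331 reads, a ratio of 0.230 (0.204 to 0.260). Its levels in the mimic library, 181 TPM, and in Cart-miR-23 KO, 1433 TPM, lay on opposite sides of the 661 TPM of wild type. Nrep, a small neuronal regeneration-related protein, had 331 and 77 reads, a ratio of 0.255 (0.197 to 0.328), Slc13a5, a citrate transporter, 103 and 24 reads, a ratio of 0.256 (0.157 to 0.402), and Bambi, a decoy receptor of BMP and TGF-β signalling, 100 and 27 reads, a ratio of 0.297 (0.186 to 0.457). All of these 3 were as low or lower in Cart-miR-23 KO. Smpd3, a sphingomyelinase needed for bone mineralization, had 290 and 95 reads, a ratio of 0.360 (0.282 to 0.455).

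Matn1, a matrilin of non-articular hyaline cartilage, had 2495 wild-type reads and 795 knockout reads, a ratio of 0.350 (0.323 to 0.379), with 203 TPM in the mimic library against 418 in miR-26a KO and 1193 in wild type. Penk, the precursor of enkephalins, was the most abundantly read gene of the 15 lowest, at 8544 and 2981 reads, a ratio of 0.383 (0.367 to 0.400). Mest, an imprinted hydrolase gene, had 983 and 337 reads, a ratio of 0.377 (0.332 to 0.427). Penk at 5810 TPM and Mest at 3094 TPM in Cart-miR-23 KO were near their wild-type levels of 5644 and 2759 TPM. Apoe, a lipid carrier, had a ratio of 0.306 (0.252 to 0.370), Lpl, the lipoprotein lipase, 0.364 (0.291 to 0.452), Lyz2, the lysozyme of macrophages, 0.342 (0.293 to 0.399) and C1qb, a complement chain made by macrophages, 0.371 (0.223 to 0.597). Finally, the transcription regulators Zfp395 and Rcor2 had ratios of 0.306 (0.182 to 0.496) and 0.346 (0.243 to 0.485). Macrophage markers moved with several of these genes, and their values are given with that list. The smallest ratio counted as above 2 was that of Pdlim1, 62 reads against 34, and the largest counted as below 0.5 those of Fut10 and Lbhd1, each with 20 reads against 44.

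**Figure D2:**
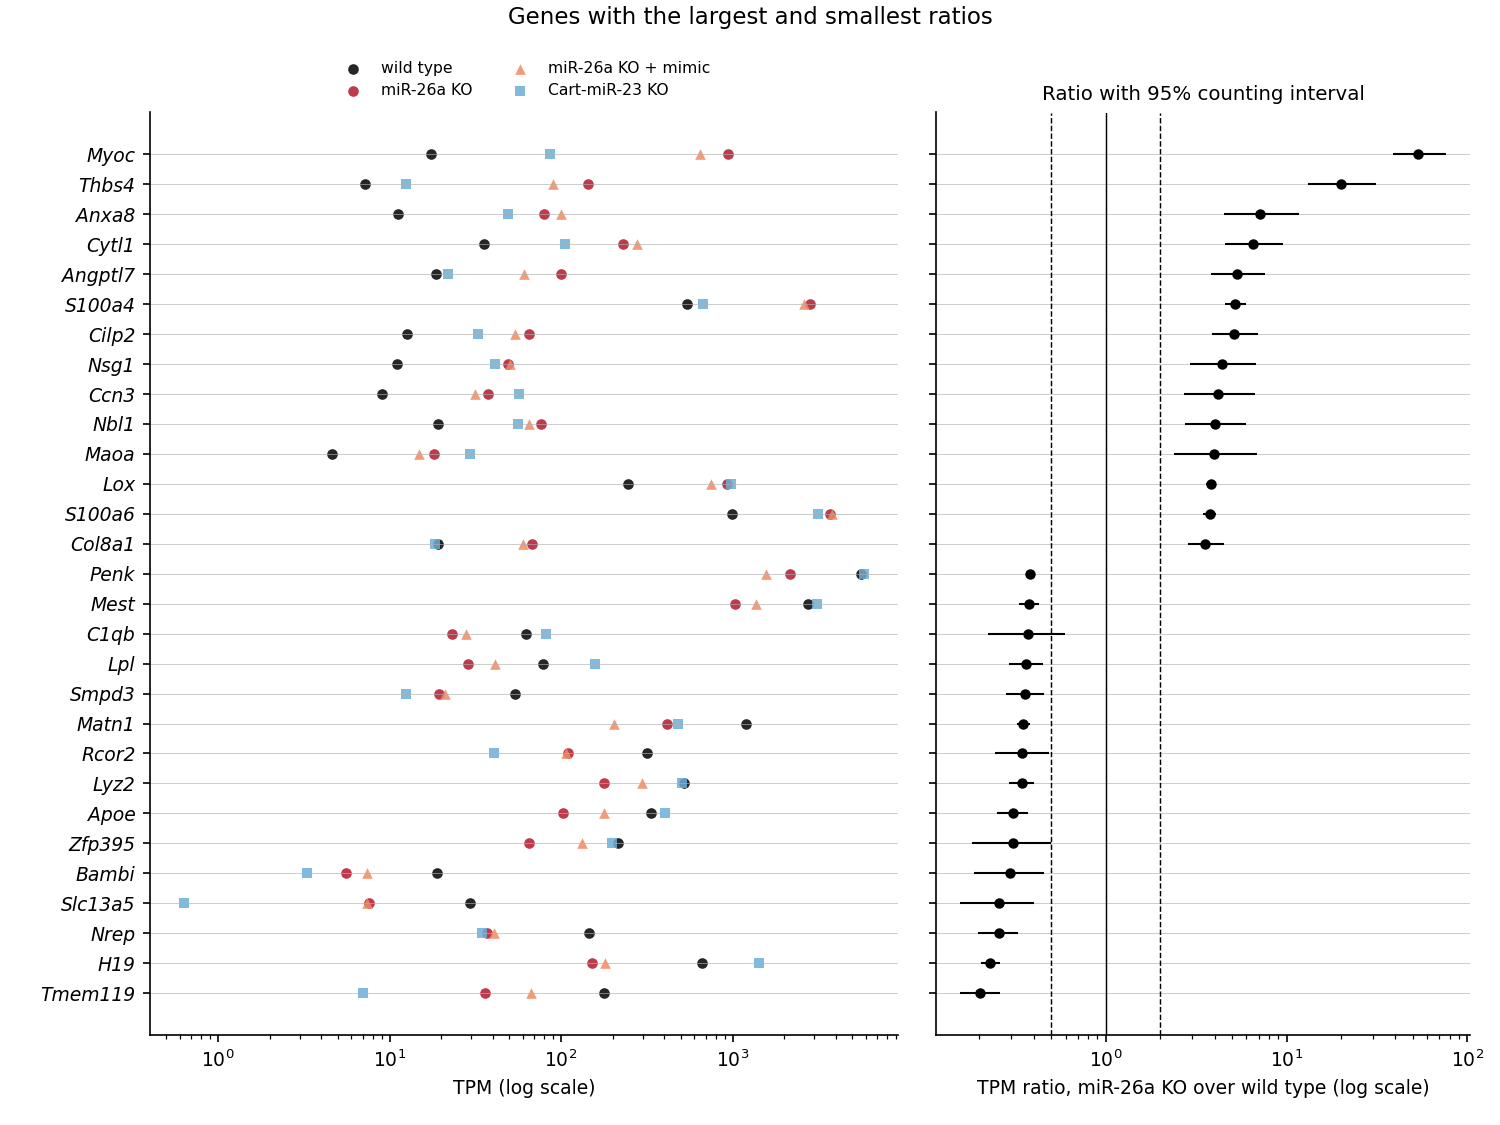
Left, TPM on a log axis in all 4 libraries for 14 of the 15 genes with the largest and the 15 with the smallest TPM ratios. Right, the ratio of miR-26a KO to wild type on a log axis with its 95% counting interval, with dashed lines at 2-fold. Myoc stands out among the higher genes, at 939 TPM in miR-26a KO and 645 TPM in the mimic library against 17.5 TPM in wild type.

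No gene had 0 reads in one library and 20 or more in the other. The nearest were Eef1a2, a muscle and neuronal elongation factor, with 0 wild-type reads and 16 knockout reads, and Ramp1, a receptor-modifying protein, with 12 wild-type reads and 0 knockout reads. A further 587 genes had 40 or more reads in both libraries together but fewer than 20 in 1 of them, and of these 86 had a ratio above 2 and 78 a ratio below 0.5. These were left out of the ranking, and those named next were chosen after their values were seen. F13a1, a coagulation factor chain, had 3 wild-type reads and 42 knockout reads, Igfbp6, an IGF-binding protein, 4 and 51, and Ltbp2, a latent TGF-β binding protein, 6 and 75. Their ratios were 15.4 (4.91 to 77.5), 14.0 (5.15 to 53.3) and 13.7 (6.02 to 38.6). The opposite pattern was seen for Lgr5, an R-spondin receptor, with 66 wild-type reads and 8 knockout reads, a ratio of 0.133 (0.0552 to 0.278). Igfbp6 was at 3.44 TPM in wild type and 2.84 in Cart-miR-23 KO against 48.2 in miR-26a KO and 36.2 with the mimic.

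To describe groups of genes, lists were read over members with 40 or more reads in both libraries together, with 0.5 TPM added before the log2 ratio. Over all 7615 such genes the median log2 ratio was 0.03, 4078 genes were higher and 3537 lower in miR-26a KO, 198 had a ratio above 2 (2.60%) and 135 a ratio below 0.5 (1.77%). Intervals lay above 1 for 948 genes (12.4%) and below 1 for 704 genes (9.24%). No list was tested against other genes, and each count below is to be read beside these shares.

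The cartilage matrix list was split. Its median was -0.44 over 28 members, of which 18 were lower and 10 higher, 2 below 0.5 and 5 above 2. Over the 25 with 20 or more reads in each library the median was -0.46, with 2 below 0.5 and 3 above 2, since Chad and Tnn passed the minimum only through miR-26a KO. Intervals lay below 1 for 15 members and above 1 for 7. Lowest were Matn1, given above, and Ucma, a small protein of growth plate cartilage, with 1631 wild-type reads and 639 knockout reads, a ratio of 0.430 (0.392 to 0.472). Col9a2, a chain of the type IX collagen that coats type II fibrils, followed with 554 and 262 reads, a ratio of 0.519 (0.447 to 0.603). Of the 8 markers fixed for chondrocytes, 5 were lower by less than 2-fold with intervals below 1: Col2a1 had a ratio of 0.788 (0.776 to 0.801), Acan 0.714 (0.683 to 0.746), Col11a1 0.719 (0.688 to 0.752), Col9a1 0.594 (0.554 to 0.638) and Hapln1, the link protein of aggrecan, 0.538 (0.461 to 0.628). Sox9 had a ratio of 0.994 (0.934 to 1.06) and Matn3, a matrilin, 0.879 (0.661 to 1.17), while Comp, a cartilage oligomeric protein, was higher at 1.19 (1.04 to 1.36). At the other end stood 5 genes, chosen after their values were seen, of which Cytl1 and Cilp2 were described above. Prg4, the lubricin of the articular surface, had 101 and 309 reads, a ratio of 3.36 (2.68 to 4.25). Chad, a leucine-rich matrix protein, had 16 and 90 reads, a ratio of 6.18 (3.60 to 11.3), and Tnn, a tenascin, 7 and 44 reads, a ratio of 6.90 (3.08 to 18.2). Prg4 was at 65.3 TPM in wild type, 219 in miR-26a KO, 253 with the mimic and 141 in Cart-miR-23 KO.

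Hypertrophic cartilage and bone lists were mostly lower. Of 13 members of the hypertrophic cartilage and growth plate list, 11 were lower and 2 higher, with a median of -0.37, and of -0.61 with 10 or more reads in both libraries together. Ptch1, the Hedgehog receptor, had 123 wild-type reads and 52 knockout reads, a ratio of 0.464 (0.329 to 0.647), and Pth1r, the receptor of parathyroid hormone-related protein, 1637 and 704, a ratio of 0.472 (0.432 to 0.516). Sgms2, a sphingomyelin synthase, had a ratio of 0.525 (0.430 to 0.639). The 2 higher members were Wif1, a secreted Wnt inhibitor, at 2.04 and Mmp13, the collagenase of hypertrophic cartilage, at 1.72, and Col10a1, the collagen that defines hypertrophic chondrocytes, had a ratio of 0.858 on 105 and 82 reads. Of 25 osteoblast and bone matrix genes, 21 were lower and 4 higher, 5 were below 0.5 and only Lox was above 2, with a median of -0.24. Over the 23 with 20 or more reads in each library 3 were below 0.5 and the median was -0.22, since Ifitm5 and Bmp3, a bone morphogenetic protein, passed the minimum only through wild type. Col1a1, the most abundantly read gene of wild type, had a ratio of 0.425 (0.417 to 0.433), while Col1a2, the other chain of the same collagen, had 18746 and 14673 reads and a ratio of 0.860 (0.841 to 0.878). Ifitm5, an osteoblast membrane protein, had 34 and 6 reads, a ratio of 0.194 (0.0665 to 0.467), and Tmem119 and Smpd3 were given above. Both Col1a1 and Ibsp were lower still in Cart-miR-23 KO, where Col1a1 was at 1311 TPM against 2690 in miR-26a KO and 6328 in wild type, and Ibsp at 842 TPM against 2967 and 5063. Here and for every list, fewer cells of a type and less RNA per cell cannot be told apart in libraries of whole cultures.

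**Figure D3:**
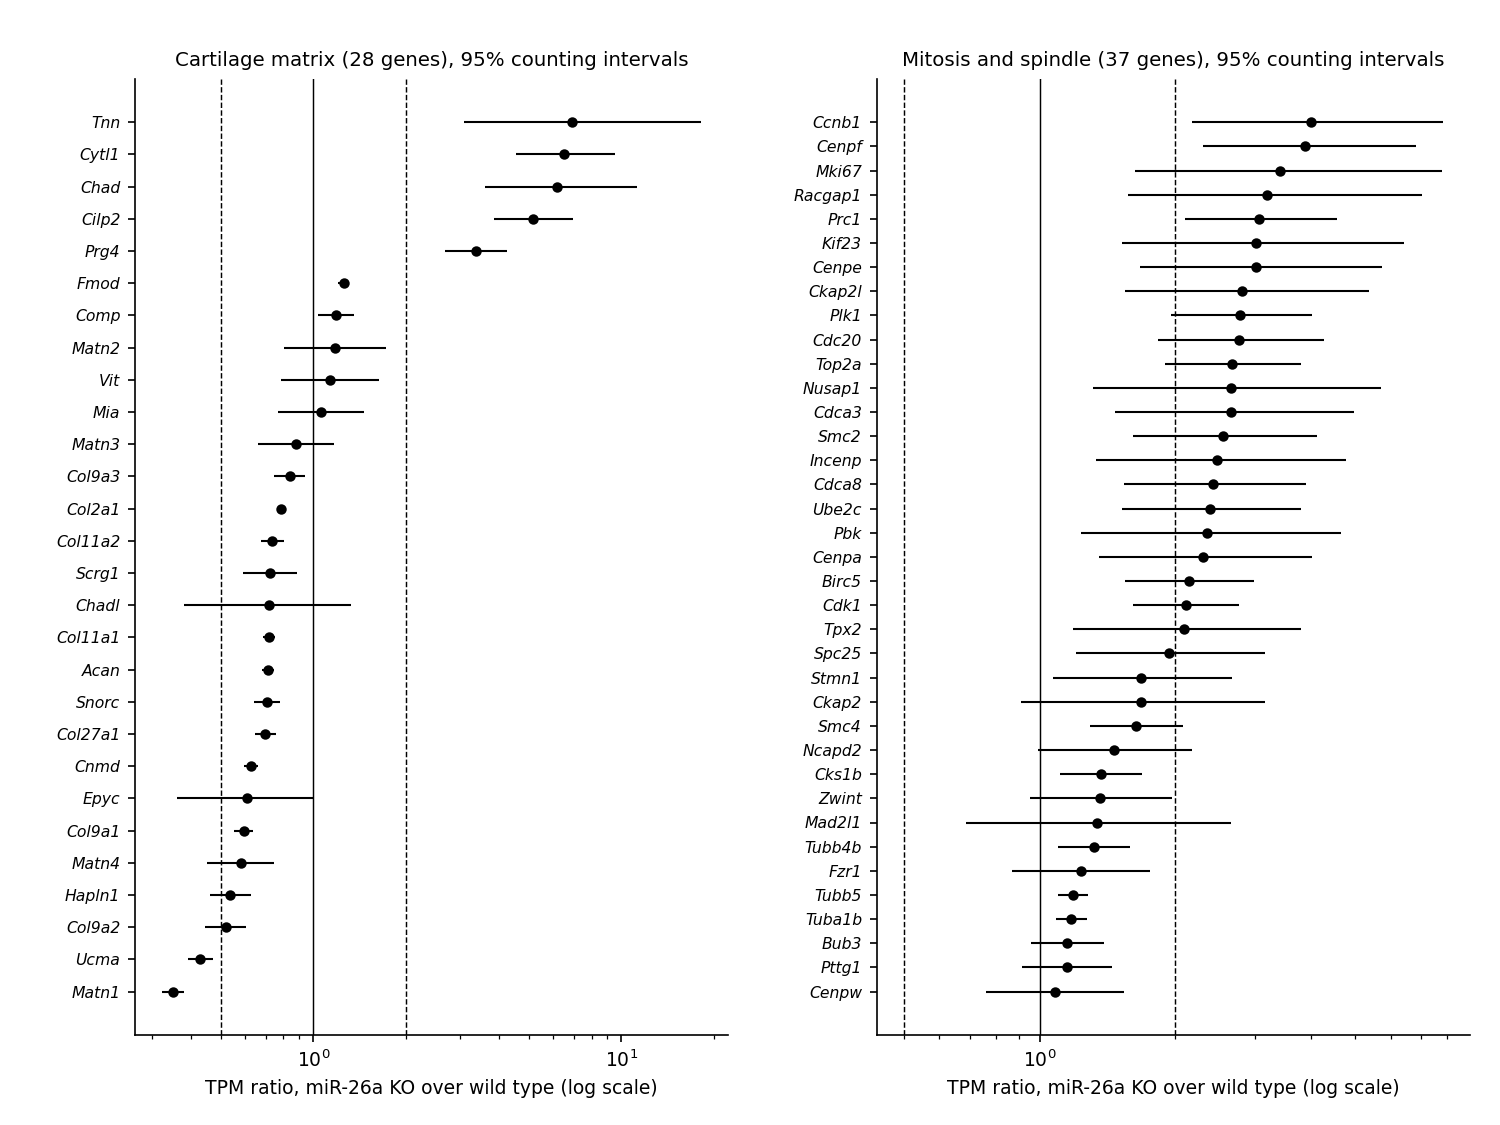
TPM ratios of miR-26a KO to wild type on a log axis, with 95% counting intervals, for the 28 cartilage matrix genes (left) and the 37 mitosis and spindle genes (right) with 40 or more reads; dashed lines mark 2-fold. Cartilage genes spread from 0.350 for Matn1 to 6.90 for Tnn, whereas all mitosis genes lie to the right of 1.

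Genes of fibrous tissue and matrix turnover were higher in the main. The fibroblast and synovial lining list had a median of 0.41 over 14 members, 11 higher and 3 lower, 3 above 2 and 0 below 0.5. Over the 12 with 20 or more reads in each library the median was 0.41 and 2 were above 2, as Fbln2 passed the minimum only through miR-26a KO. Fbln2, a fibulin of basement membranes and elastic tissue, had 12 wild-type reads and 77 knockout reads, a ratio of 7.05 (3.81 to 14.2). Ly6a, the stem cell antigen Sca-1, had 55 and 119 reads, a ratio of 2.38 (1.71 to 3.33), and S100a4 was described above. Among 17 proteinases and inhibitors of the matrix the median was 0.35, with 11 higher, 6 lower and 2 above 2. Those furthest up were inhibitors and an ADAMTS-like protein rather than proteinases: Adamtsl4 had a ratio of 2.47 (1.65 to 3.77), Timp1 2.18 (1.97 to 2.41) with 573 and 1137 reads, and Timp2 1.90 (1.82 to 1.98) with 3437 and 5945 reads. Timp3, which was among the 10 genes with the most reads in wild type, had 15794 and 20408 reads and a ratio of 1.42 (1.39 to 1.45). Among the other genes of that set, Sparc, Fn1, mt-Nd4, mt-Cytb and Rplp1 had ratios near 1, at 1.03, 0.947, 1.04, 1.06 and 0.972.

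Mitosis genes were higher in miR-26a KO. All 37 members of the mitosis and spindle list with 40 or more reads in both libraries together had a higher TPM in miR-26a KO, 22 of them above 2 and 29 with an interval above 1, and the median was 1.17. With 100 or more reads in both libraries together the median was 0.45, so the shift was smaller in the members with most reads. Only 24 of the 37 had 20 or more reads in each library, and the others could pass the minimum only through their reads in miR-26a KO. Over the 24 the median was 0.83, with 24 higher and 11 above 2. Ccnb1, Cenpf and Mki67 were not among them. Ccnb1, the cyclin of mitotic entry, had 14 wild-type reads and 51 knockout reads, a ratio of 4.00 (2.18 to 7.83). Cenpf, a kinetochore protein, had 19 and 67 reads, a ratio of 3.87 (2.30 to 6.83), and Mki67, the proliferation antigen Ki-67, 10 and 31 reads, a ratio of 3.40 (1.63 to 7.78). Mki67 was at 0.951 TPM in wild type, 3.24 in miR-26a KO, 1.95 with the mimic and 2.09 in Cart-miR-23 KO. DNA replication genes showed less of a shift, with a median of 0.45 over 22 members, 17 higher and 5 lower, 2 above 2 (1 with 20 or more reads in each library), and a median of 0.26 with 100 or more reads in both libraries together. Of these, Rrm2, a subunit of ribonucleotide reductase, had a ratio of 2.49 (1.60 to 3.96), Fen1, the flap endonuclease, 2.13 (1.13 to 4.17) and Tk1, thymidine kinase, 1.93 (1.16 to 3.30). In the list of p53, senescence and cell cycle inhibitor genes the median was 0.20, with 20 of 30 higher, and Cdkn1c, the imprinted inhibitor p57, was the lowest member by far with 87 and 12 reads, a ratio of 0.151 (0.0754 to 0.278).

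Promoters of mitotic genes often carry the cell cycle homology region (CHR) and CCAAT boxes. Windows from 250 bases before to 50 bases after each start (RefSeq, GRCm38.p6) were searched on both strands for TTTGAA, a common form of the CHR, and for CCAAT. Of the 37 mitosis genes 32 had a window, and 22 of these (68.8%) held TTTGAA and 27 (84.4%) CCAAT. Of all 27025 genes with a window 20.2% held TTTGAA and 41.1% CCAAT, and of the 6028 with a window among genes of 40 or more reads 13.3% and 42.2%. Among 18 DNA replication genes with a window 3 (16.7%) held TTTGAA and 11 (61.1%) CCAAT. The motifs were chosen with the values known, and a match describes the letters only. Stretches around the match, in capitals and on the strand of the gene, are printed for 4 genes whose ratios were all above 2.5, to show its letters close to the start site in each: Cenpf (chr1:189688062-189688101, minus strand), Prc1, a spindle midzone protein with a ratio of 3.06 (2.10 to 4.56; chr7:80294429-80294468, plus strand), Plk1, a mitotic kinase with a ratio of 2.78 (1.95 to 4.02; chr7:122159448-122159484, plus strand) and Cdc20, an activator of the anaphase-promoting complex with a ratio of 2.76 (1.82 to 4.27; chr4:118437339-118437378, minus strand). Ccnb1 held no TTTGAA in its window.
Cenpf: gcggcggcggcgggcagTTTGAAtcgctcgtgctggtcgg
Prc1: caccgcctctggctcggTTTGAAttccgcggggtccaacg
Plk1: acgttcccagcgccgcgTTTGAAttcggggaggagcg
Cdc20: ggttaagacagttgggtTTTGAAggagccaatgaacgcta

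Metallothioneins and antioxidant genes were higher. Mt1 and Mt2 encode small metal-binding proteins that respond to zinc, glucocorticoids and oxidative stress, and they lie next to each other on chromosome 8. Mt1 (chr8:94179082-94180327) had 1349 wild-type reads and 3394 knockout reads, a ratio of 2.76 (2.59 to 2.95). Mt2 (chr8:94172664-94173568) had 785 and 2078 reads, a ratio of 2.91 (2.68 to 3.16). The wild-type library was the lowest of the 4 for both, with Mt1 at 2352 TPM against 6499 in miR-26a KO, 7045 with the mimic and 10420 in Cart-miR-23 KO. The list of NRF2, glutathione and metallothionein genes had a median of 0.29 over 28 members, with 23 higher, 5 lower, 5 above 2 and 0 below 0.5, and intervals above 1 for 16 and below 1 for 0. Sod3, the extracellular superoxide dismutase, had a ratio of 2.62 (2.25 to 3.04), Hmox1, heme oxygenase 1, 2.30 (1.77 to 3.00) and Nqo1, a quinone reductase, 2.02 (1.33 to 3.10). Nfe2l2, which encodes NRF2 itself, had 137 and 127 reads, a ratio of 1.02. Windows around the starts of the 2 metallothionein genes are printed because both genes were higher, with the letters TGCACNC and TGCGCNC, forms of the metal response element, in capitals on either strand. The Mt1 window (chr8:94178839-94179138, plus strand) held 3, of which 2 lie after the start. The Mt2 window (chr8:94172368-94172667, plus strand) held 4, of which 1 lies after the RefSeq start that sets the window. That match (within chr8:94172605-94172645) still lies before the Mt2 coordinates given above. Such letters occurred 3 or more times in 2.27% of all 27025 genes with a window and in 4.33% of the 6028 among genes of 40 or more reads.
Mt1: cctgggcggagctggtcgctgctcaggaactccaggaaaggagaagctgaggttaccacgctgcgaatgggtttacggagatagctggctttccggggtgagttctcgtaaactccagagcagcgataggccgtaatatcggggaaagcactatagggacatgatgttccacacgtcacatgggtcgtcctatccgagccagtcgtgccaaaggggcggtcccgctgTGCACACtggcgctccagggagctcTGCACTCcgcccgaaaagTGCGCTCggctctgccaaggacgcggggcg
Mt2: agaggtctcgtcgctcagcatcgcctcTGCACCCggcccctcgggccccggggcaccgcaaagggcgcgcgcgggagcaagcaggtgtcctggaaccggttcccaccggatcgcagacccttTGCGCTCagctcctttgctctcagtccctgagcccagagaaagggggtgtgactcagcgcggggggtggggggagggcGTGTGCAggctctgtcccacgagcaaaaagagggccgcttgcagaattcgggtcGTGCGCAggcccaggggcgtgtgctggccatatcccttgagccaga

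Imprinted genes included some of the smallest ratios. Over 27 members of the IGF, FGF and imprinted list the median was -0.22, with 19 lower and 8 higher, 4 below 0.5 and 3 above 2. Over the 22 with 20 or more reads in each library 0 were above 2 and 3 below 0.5, so the 3 above 2, Igfbp6 and Dlk1 among them, passed the minimum only through miR-26a KO, and Cdkn1c passed it only through wild type. All 4 genes below 0.5 are imprinted: Cdkn1c, H19 and Mest, given above, and Peg3, a zinc finger gene expressed from the paternal allele, with 580 and 207 reads, a ratio of 0.392 (0.333 to 0.460). Imprinted genes did not all go one way. Dlk1, a paternally expressed Notch-like protein of precursor cells, had 18 and 80 reads, a ratio of 4.88 (2.90 to 8.65), while Meg3, from the same imprinted region, had 1759 and 1761 reads, a ratio of 1.10 (1.03 to 1.18). Dlk1 was at 25.8 TPM in wild type, 126 in miR-26a KO, 101 with the mimic and 347 in Cart-miR-23 KO, and H19 at 661, 152, 181 and 1433 TPM in the same order. Cart-miR-23 KO was the highest of the 4 libraries for both genes, while wild type was the lowest for Dlk1 and miR-26a KO for H19.

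Signalling lists went in different directions. Over 31 BMP, TGF-β and Smad genes the median was 0.12, with 18 higher and 13 lower. Ltbp2 and Ltbp1, which hold latent TGF-β in the matrix, were at 13.7 and 2.23 (1.43 to 3.55) and Smad6, an inhibitory Smad, at 2.04 (1.33 to 3.17), while Bambi and Bmp3, a BMP with 36 and 12 reads at 0.366, were the 2 members below 0.5. Ltbp2 had under 20 wild-type reads and Bmp3 under 20 knockout reads, and over the 27 members with 20 or more reads in each library 2 were above 2 and 1 below 0.5. The Wnt list had a median of -0.28 over 20 members, 12 lower and 8 higher. Here Frzb, a secreted frizzled-related protein of articular cartilage, had 883 and 422 reads, a ratio of 0.525 (0.466 to 0.590), Ccn4 0.528 (0.426 to 0.650) and Nkd1, a Wnt feedback inhibitor, 0.549 (0.281 to 1.03). In the YAP and CCN list the median was 0.04 over 16 members, but CCN proteins lay at both of its ends. Ccn3 and Ccn5 had ratios of 4.19 and 2.13 (1.68 to 2.71), and Ccn1, Ccn2 and Ccn4 ratios of 0.714, 0.758 and 0.528. Crim1, a membrane-bound BMP regulator, had a ratio of 1.83 (1.41 to 2.41). Immediate early genes had a median of 0.26 with 14 of 19 higher, led by Ier2 at 2.16 (1.36 to 3.50), Fos at 2.08 (1.29 to 3.41) and Junb at 1.94 (1.45 to 2.60).

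The macrophage list held the lowest median, -1.54, with all 9 members with enough reads lower, 7 below 0.5 and 9 intervals below 1. Only 5 of the 9 had 20 or more reads in each library, the others passing the minimum through wild type, and over these 5 the median was -1.14, with 3 below 0.5. With 100 or more reads in both libraries together the median was -0.87, but only Lyz2, Csf1r and Cd68 had that many. Its 25 genes summed to 1240 TPM in wild type, 442 in miR-26a KO, 838 with the mimic and 1501 in Cart-miR-23 KO. Lowest were C1qc (67 and 12 reads, a ratio of 0.197, 0.0968 to 0.367) and Fcer1g, an Fc receptor chain (65 and 13, 0.220, 0.111 to 0.402), and Ctss, a lysosomal protease, had 67 and 15 reads, a ratio of 0.246 (0.130 to 0.435). The markers fixed for macrophages, Csf1r, Cd68, C1qa, Adgre1 and Lyz2, were all lower, with Adgre1 at 20 and 2 reads. Apoe and Lpl, the lowest of the 9 adipocyte and lipid storage genes (median -0.11), are also made by macrophages, and the part of macrophage RNA in their difference was not tested. In the interferon and antigen presentation list 14 of 19 were lower, with a median of -0.15 (-0.30 with 10 or more reads in both libraries together), and the 3 below 0.5, of which 2 had 20 or more reads in each library, were H2-Ab1, a class II chain of antigen-presenting cells, at 0.439 (0.218 to 0.837), Isg15 at 0.450 (0.293 to 0.678) and Rtp4 at 0.467 (0.262 to 0.804). Osteoclast genes did not follow, with a median of 0.16 over 4 members and Ctsk, cathepsin K, at 1.39 (1.14 to 1.68). The median was 0.32 with 100 or more reads in both libraries together, which only Ctsk and Clcn7 had. No endothelial, lymphocyte or skeletal muscle gene had enough reads, the erythroid list held only Tfrc, the transferrin receptor that other cells carry too, at 0.796 (0.605 to 1.05), and the neutrophil list only Lcn2, a secreted lipocalin that chondrocytes also make, with 10 and 53 reads, a ratio of 5.82 (2.93 to 12.8). Lcn2 also led the NF-κB and cytokine list, whose median was 0.19 with 10 of 16 higher and 3 above 2, followed by Tnfrsf11b, the decoy receptor osteoprotegerin, at 2.09 (1.73 to 2.55) and Icam1 at 2.07 (1.28 to 3.44). In both lists Lcn2 passed the minimum only through miR-26a KO. Over the 13 NF-κB and cytokine genes with 20 or more reads in each library the median was 0.19, with 9 higher and 2 above 2.

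Lists of basic cell function had medians between -0.22 and 0.11. Cytoplasmic ribosomal protein genes were lower in 77 of 79 members, but with a median of -0.22 and none beyond 2-fold, from 0.603 for Rpl35 to 1.02, and many have near-identical copies between which reads could be split. Intervals lay below 1 for 56 of them. Nuclear genes of oxidative phosphorylation had a median of -0.07 over 73 members, and mitochondrially encoded transcripts 0.00 over 10, with mt-Co1 lowest at 0.754 (0.700 to 0.811). Glycolysis and hypoxia genes had a median of -0.03 over 31 members, with Aldoc, an aldolase, lowest at 67 and 16 reads and a ratio of 0.262 (0.142 to 0.458). Aldoc passed the minimum only through wild type. Of the 31 members 2 were below 0.5 and 1 above 2, and of the 28 with 20 or more reads in each library 0 were below 0.5 and 1 above 2. For chaperones and collagen-modifying enzymes the median was 0.00 over 40 members, and beside Lox its relatives Loxl3 and Loxl4 had ratios of 1.77 (1.38 to 2.29) and 1.53 (0.991 to 2.39). Genes of cholesterol and fatty acid synthesis had a median of -0.07, with Fads2, a desaturase, lowest at 0.567 (0.412 to 0.775). Of 25 members 1 was above 2, at 2.50, and 0 below 0.5, and of the 23 with 20 or more reads in each library 0 lay beyond 2-fold. Glycosaminoglycan synthesis genes had a median of 0.11, and Sulf1, a sulfatase of heparan sulfate, was the only one of 29 above 2, at 2.25 (1.55 to 3.30). The contractile list had a median of 0.00 over 11 members, with Cnn2, a calponin, lowest at 0.641 (0.517 to 0.794). Chondrocyte transcription factors had a median of 0.03 over 14 members, 7 on either side, with Creb5, a factor of the superficial zone, at 2.10 (1.37 to 3.28) and Mef2c, a driver of hypertrophy, at 0.472 (0.359 to 0.617). Of 16 genes of microRNA processing and Argonaute function none lay beyond 2-fold, and Ddx17, an RNA helicase of the Drosha complex, was lowest at 0.766 (0.650 to 0.901).

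**Figure D4:**
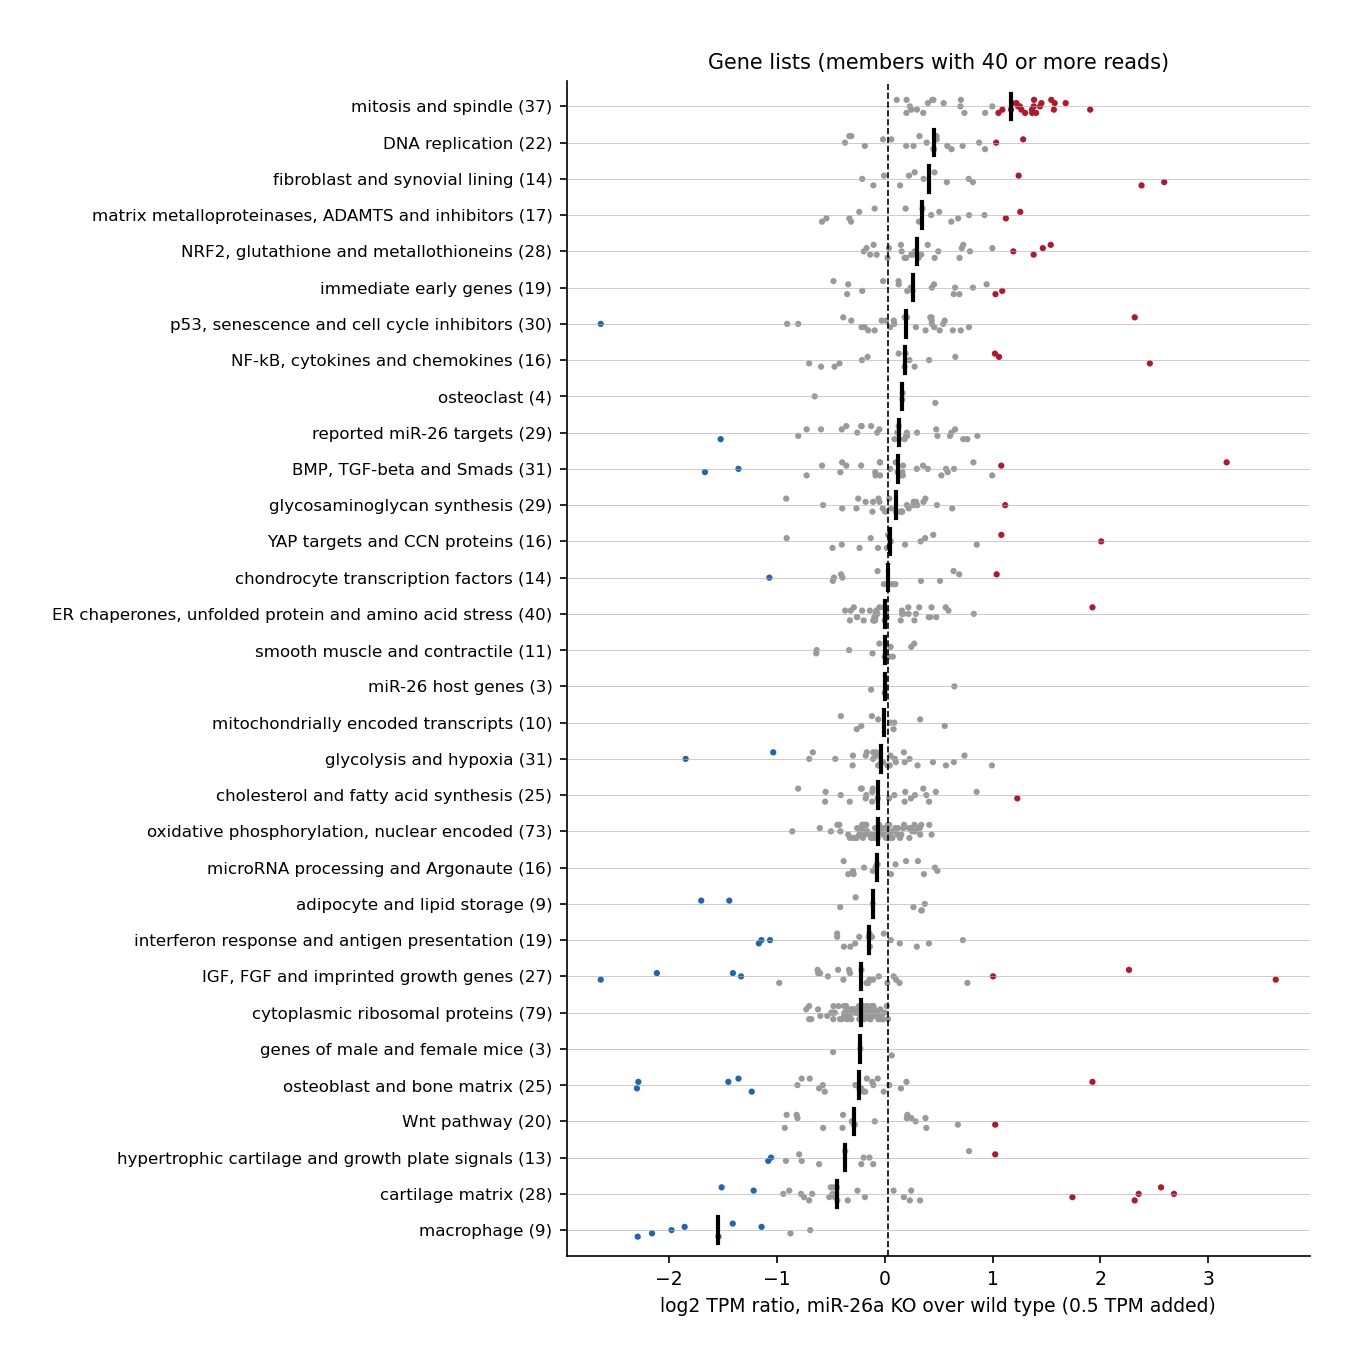
Log2 TPM ratios of miR-26a KO to wild type (0.5 TPM added) of the members of 32 gene lists with 40 or more reads in both libraries together, with the number of members in brackets. Black bars are list medians, red and blue points lie beyond 2-fold, and the dashed line is the median of all 7615 genes, 0.03. Medians run from -1.54 for the macrophage list to 1.17 for the mitosis and spindle list.

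None of the 3 genes that host miR-26 had an interval below 1. Ctdspl, which holds Mir26a-1 (hairpin chr9:119031796-119031885), had 365 wild-type reads and 332 knockout reads, a ratio of 0.999 (0.858 to 1.16). Ctdsp2, the host of Mir26a-2 (chr10:126995530-126995613), had 300 and 250 reads, a ratio of 0.915 (0.771 to 1.09). Ctdsp1, the host of Mir26b (chr1:74394310-74394394), had 50 and 72 reads, a ratio of 1.58 (1.09 to 2.32). Within 1 Mb of the 3 loci 48 genes had 40 or more reads in both libraries together, and 0 of them lay beyond 2-fold. Near Mir26a-1 the ratios of 10 genes ran from 0.549 for Oxsr1, a stress kinase, to 1.47 for Golga4, a Golgi protein. Near Mir26a-2 those of 21 genes ran from 0.622 for March9 to 1.51 for Mettl1, a tRNA methyltransferase, and near Mir26b those of 17 genes from 0.628 for Ankzf1 to 1.65 for Tns1, a focal adhesion protein. Intervals lay above 1 for 1, 2 and 4 genes around the 3 loci in this order, and below 1 for 0, 1 and 0.

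Genes reported as targets of miR-26 were spread around 1. Of 29 members with enough reads 17 were higher and 12 lower in miR-26a KO, with a median of 0.13, 0 above 2 and 1 below 0.5. Intervals lay above 1 for 7 and below 1 for 5. Highest was Map3k2, a MAP kinase kinase kinase, with 32 and 54 reads, a ratio of 1.85 (1.18 to 2.97). Igf1, the growth factor, followed with 52 and 81 reads, a ratio of 1.71 (1.19 to 2.47), and Slc7a11, the cystine transporter, with 30 and 46 reads, a ratio of 1.68 (1.04 to 2.76). Further members with intervals above 1 were Klf9, a transcription factor, at 1.58 (1.32 to 1.89), Adam17, a sheddase, at 1.55 (1.18 to 2.04), Plod2, a collagen lysyl hydroxylase, at 1.39 (1.26 to 1.54) and Ccnd2, cyclin D2, at 1.14 (1.09 to 1.19) on 4256 and 4404 reads. Lowest was Cd200, a membrane glycoprotein, with 37 and 11 reads, a ratio of 0.327 (0.150 to 0.654), and 0 of the 25 with 20 or more reads in each library were below 0.5. Cdk6, a kinase of G1 phase with 209 and 109 reads, had a ratio of 0.573 (0.450 to 0.725), Ccn2, connective tissue growth factor, 0.758 (0.721 to 0.798), Loxl2 0.837 (0.721 to 0.970) and Col1a2 0.860. The remaining 17 had intervals that include 1, among them Ezh2 at 1.10 (0.613 to 1.97), Gsk3b at 1.16 (0.961 to 1.39), Smad1 at 0.589 (0.334 to 1.01) and Ptgs2 at 0.634 (0.312 to 1.24). In wild type, miR-26a KO and the mimic library in turn, Map3k2 was at 10.2, 19 and 18.7 TPM, Cd200 at 15.1, 4.93 and 4.18 TPM, Igf1 at 35.8, 61.2 and 50.1 TPM and Slc7a11 at 11.9, 20.0 and 11.0 TPM. The mimic library was thus near the knockout level for Map3k2 and Cd200, between the other 2 for Igf1, and near the wild-type level for Slc7a11.

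A seed match is shown for 5 of these genes and for the host gene Ctdsp2, to set high and low genes with the same letters side by side. Klf9, Ccn2, Kpna3, Rcan1, Smad1, Strn and Tut4, also on the list, held no match of 7 letters in the 3′ UTR searched. Each stretch of 26 bases comes from the longest annotated 3′ UTR of the gene (GENCODE M21, GRCm38), with the 7 letters that pair with the seed in capitals. In Adam17 (chr12:21323971-21323996, minus strand), Slc7a11 (chr3:50365021-50365046, minus strand), Cd200 (chr16:45383398-45383423, minus strand) and Cdk6 (1 of 2 matches, chr5:3529990-3530015, plus strand) an A follows, which makes a match of 8 bases, and in Igf1 (1 of 2 matches, chr10:87934319-87934344, plus strand) and Ctdsp2 (chr10:126997555-126997580, plus strand) it does not. Adam17, Slc7a11 and Igf1 were higher and Cd200 and Cdk6 lower in miR-26a KO, so a match of the same kind stood in genes on both sides.
Adam17: tgttacactaaTACTTGAatatatac
Slc7a11: ttgtatattttTACTTGAaaatactt
Igf1: ctttaagaaagTACTTGActaaaaaa
Cd200: tttccctggtcTACTTGAatctgatg
Cdk6: ttgctttttcaTACTTGAaattcgtt
Ctdsp2: agtgttgctctTACTTGAtttgccaa

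The seed match was read across all genes. Of 7341 genes with a 3′ UTR of at least 50 bases and 40 or more reads, 925 held the 7 letters, and their median log2 ratio was 0.07 against 0.03 for the 6416 genes without. It was 0.09 for the 406 genes with a match of 8 bases and 0.06 for the 519 with 7 bases only. The share of genes higher in miR-26a KO was 59.4% and 56.1% in these 2 groups and 53.3% without a match. Genes whose ratio was above 2 made up 2.46% of those with an 8-base match and 2.60% of those without a 7-base match, and genes below 0.5 made up 1.23% and 1.82%. Intervals lay above 1 for 14.0% and 12.5% of these groups and below 1 for 7.64% and 9.07%. More matches did not go with higher ratios: the median was 0.08 for 808 genes with 1 match, -0.04 for 101 genes with 2 and 0.08 for 16 genes with 3 or more. Genes with a match had longer 3′ UTRs, 2838 bases at the median against 1167, and within 3 equal groups of genes by that length the medians with and without a match were 0.13 and 0.03 (short, 70 genes with a match), 0.08 and 0.04 (middle, 247 genes) and 0.06 and 0.01 (long, 608 genes). Read the same way, the match for let-7a gave medians of 0.05 with and 0.03 without, that for miR-23a 0.02 and 0.04, for miR-27a 0.03 and 0.04 and for miR-140-3p 0.03 and 0.04.

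The match was about as frequent among the genes above 2 as among all ranked genes. Of the 112 genes above 2, 110 had a 3′ UTR of sufficient length and 15 of these (13.6%) held a 7-base match, among them Lox, Serpinb1a, a leukocyte protease inhibitor at 3.29 (2.23 to 4.98), Reep4, Hectd3, Smc2 and Ltbp1. Of the 57 genes below 0.5, 3 of 55 (5.45%) held one, namely Mme, a membrane endopeptidase with 2 matches at 0.494 (0.427 to 0.569), Mef2c and Kcnk1. Over all ranked genes with a 3′ UTR the share was 12.6%. Myoc, Thbs4, Anxa8, Cytl1 and the other ranked genes with ratios above 4 held none, whereas Ltbp2, outside the ranking, held 1 match of 8 bases. The genes with the most matches lay on both sides of 1. D10Wsu102e, whose annotated 3′ UTR spans 122583 bases, had 10 and a ratio of 0.988 (0.646 to 1.51), Onecut2 4 and 1.21 (0.629 to 2.33), Serbp1, an mRNA-binding protein, 4 and 1.13 (1.03 to 1.24). The genes with 3 matches ran from 0.628 for Dock4 and 0.657 for Ncbp3, through 0.878 for Arglu1, 1.16 for Gsk3b and 1.40 for Chic1, to 1.49 for Crebrf and 1.85 for Map3k2.

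**Figure D5:**
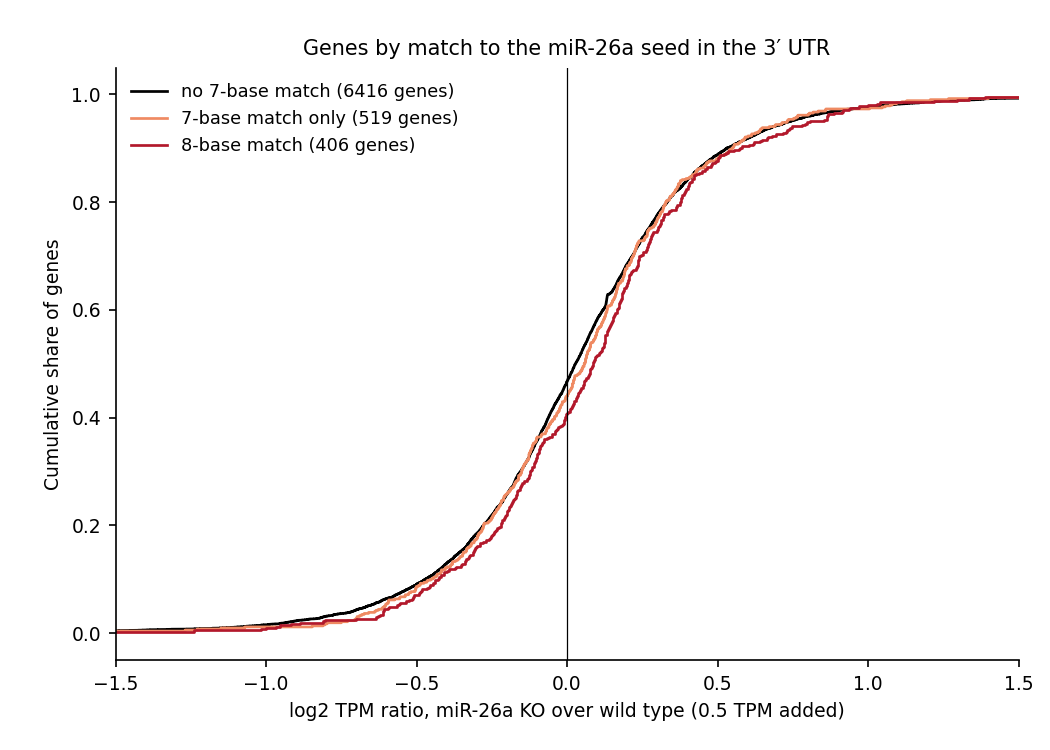
Cumulative share of genes (vertical axis) by log2 TPM ratio of miR-26a KO to wild type (horizontal axis, 0.5 TPM added, cropped at 1.5 to each side) for genes without a 7-base match to the miR-26a seed, with a 7-base match only and with an 8-base match. The 3 curves run close together, with medians of 0.03, 0.06 and 0.09.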

How the data were processed

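RNA of cultured articular chondrocytes was sequenced by the authors as QuantSeq 3′ mRNA libraries (NextSeq500, single reads of 75 bases, no quality filter), with mm10 and GRCm38.p6 named in the submitters' processing notes. The aligner, the counter and its use of strand are not given in the sources used here. The deposited count table holds whole reads per gene, entered here as estimated counts only because its columns end in an alignment percentage, and the deposited TPM matrix holds TPM computed by the authors for 55141 of the 55450 genes. The 309 genes without TPM (0.480% of wild-type reads and 0.515% of miR-26a KO reads) were left out. Reads come from the 3′ end, so levels are compared only within a gene.

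Ratios are deposited TPM of miR-26a KO over wild type, with exact Clopper-Pearson limits computed from reads. No count model was fitted as a test, since each group has 1 library. Depth was 1505805 and 1369924 reads on genes. Named genes were the 15 largest and 15 smallest ratios, genes at 0 reads on one side, the 10 with most wild-type reads, the 3 members of each list furthest in the direction of its median, members of the miR-26 target and host lists, markers, and genes with most seed matches, and others are said to have been chosen after their values were seen or are shown as contrasts within a list. Members, lists and motifs were chosen with earlier results of these data known. A few genes that these rules cover are not reported here. Scripts were tested on simulated data. Alternatives were other scalings (CPM, edgeR 4.0.16 TMM and DESeq2 1.42.0 size factors, from R 4.3.3), other read minimums, thresholds and pseudocounts. Python 3.11.15 with numpy 2.4.6, pandas 2.3.3, scipy 1.17.1 and matplotlib 3.10.9 was used.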

Additional observations from a re-analysis of the deposited data

How the results depend on the processing

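The counts of genes with a ratio above 2 and below 0.5, 112 and 57 with 20 or more reads in each library, depended on the minimum and the threshold. They were 241 and 148 with 10 reads in each library, 40 and 23 with 50 reads in each, 198 and 135 with 40 reads in both together, and 1185 and 1020 with no filter. With a 1.5-fold threshold they were 510 and 338. Counting genes whose 95% interval left out 1 gave 845 and 599, whose 99% interval left out 1 gave 514 and 358, and whose 95% interval lay wholly beyond 2-fold gave 30 and 19. With a minimum of 10 reads, 4 genes had 0 reads in the other library. The mitosis median was 0.45 with 100 reads in both together, against 1.17, and the macrophage median -0.87 against -1.54, where fewer genes enter. The median of genes with a miR-26a seed match was 0.017 with DESeq2 size factors, against 0.07, a scaling that lowers every ratio alike. With 20 reads in each library, an alternative added after seeing the data, the mitosis median was 0.83, the macrophage median -1.14 and that of glycolysis genes 0.00 against -0.03. The DNA replication median was 0.26 with 100 reads in both together, against 0.45, and that of osteoclast genes 0.32 against 0.16. With 10 reads in both together the median was -0.61 for hypertrophic cartilage genes, against -0.37, and -0.30 for interferon genes, against -0.15. In all, 267 recomputed counts and medians stayed within 1.5 times the reported count or within the interval of the reported median, and 19 did not. Among the 267 were the macrophage median of -0.87 and the 7 medians given after that of the seed match. The 90 ratios recomputed for the 15 genes at either end of the ranking stayed within their own intervals. Limits of the interval of a reported median are not given here. Medians near 0 changed sign within that interval: those of chondrocyte transcription factors, chaperones, and YAP and CCN genes were -0.02, -0.05 and -0.01 with DESeq2 size factors, that of chaperones was -0.02 with TMM and -0.00 with 10 reads and -0.01 with 100 reads in both together. Chondrocyte transcription factors were at -0.07 with 10 reads and -0.20 with 100 reads, and adipocyte genes at 0.08 with 10 reads. With 100 reads mitochondrially encoded transcripts were at 0.05 and Y-linked genes, of which only Ddx3y remained, at 0.06. No paired analysis was possible because there is 1 library per condition, and for the same reason no library could be left out. Counting error is the only error the data give: spread between cultures or animals was not measured, and ratios on 20 to 30 reads carry wide intervals.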
